A study of Mus musculus with 15 samples.

Results

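The regions described here were open mainly in colon cancer organoids grown from first-round liver metastases. They were 605 of the 43020 accessible regions that the authors counted by ATAC-seq, an assay that marks open DNA by where a transposase can cut it. They were chosen by their measured accessibility. The pooled counts of the Met1 lines, scaled to a common library total (CPM, 1e6 times the counts over the library's counts in all regions), had to reach 10 CPM and at least 2 times the value of each other group, with 0.5 CPM added to both sides. Because the same libraries chose the regions, the excess of Met1 over the other groups is given as a description and was not tested.

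The study grew organoids out of liver metastases and primary tumours of C57Bl6 mice, put them back into the colon and took organoids again, over 3 rounds. Met1 is 3 lines from liver metastases of round 1, and Met2 and Met3 are 3 lines each from liver metastases of rounds 2 and 3. Primary2 and Primary3 are 3 lines each from primary tumours of rounds 2 and 3. All 15 lines carry the genotype labelled AKP, so no group here differs from the others in this label. Each line is a culture derived from a tumour, and the labels do not say which line came from which earlier one, so the p-values below measure only the spread among these lines. No primary line of round 1 is among the 15 lines. What is particular to Met1 therefore cannot be told apart from what is particular to round 1.

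Open chromatin regions hold promoters and distal elements such as enhancers, at which transcription factors bind DNA that is free of nucleosomes. Distal elements differ more between cell types and cell states than promoters do, and in intestinal epithelium they carry the binding sites of lineage factors such as GATA, HNF4 and CDX proteins. GATA6, named in the title of the study, is an endoderm factor of this kind. Accessibility counts also follow DNA copy number, since a gained chromosome offers more template to the transposase.

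The 15 libraries held 285633 counts (Primary3 replicate 2) to 5916109 counts (Primary3 replicate 3) in regions, and the Met1 libraries held 790233, 3161464 and 3342414. A single count stood for 3.5 CPM in Primary3 replicate 2 and 1.27 CPM in Met1 replicate 1, against 0.169 to 0.81 CPM in the other 13. Met1 replicate 1 had a flatter profile than the rest, with 70.5% of all 43020 regions at 10 CPM or more, against 53.7% to 58.6% in the other 14 lines. All CPM values here are counts over the library's total in regions, without further scaling.

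The 605 regions held 1.25%, 1.84% and 1.58% of all counts in Met1 replicates 1, 2 and 3. They held 0.736%, 0.48% and 0.354% in Met2 replicates 1, 2 and 3 and 0.376%, 0.34% and 0.402% in the Met3 lines. In primary lines the shares were 0.424%, 0.611% and 0.412% in Primary2 and 0.335%, 0.412% and 0.449% in Primary3. Exact 95% intervals of these shares, which cover counting error only, had half-widths of at most 0.0246 percentage points. The Met1 lines thus lay apart from all 12 others, as the choice of regions makes likely, and Met2 replicate 1 and Primary2 replicate 2 were the highest of the 12.

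**Figure D1:**
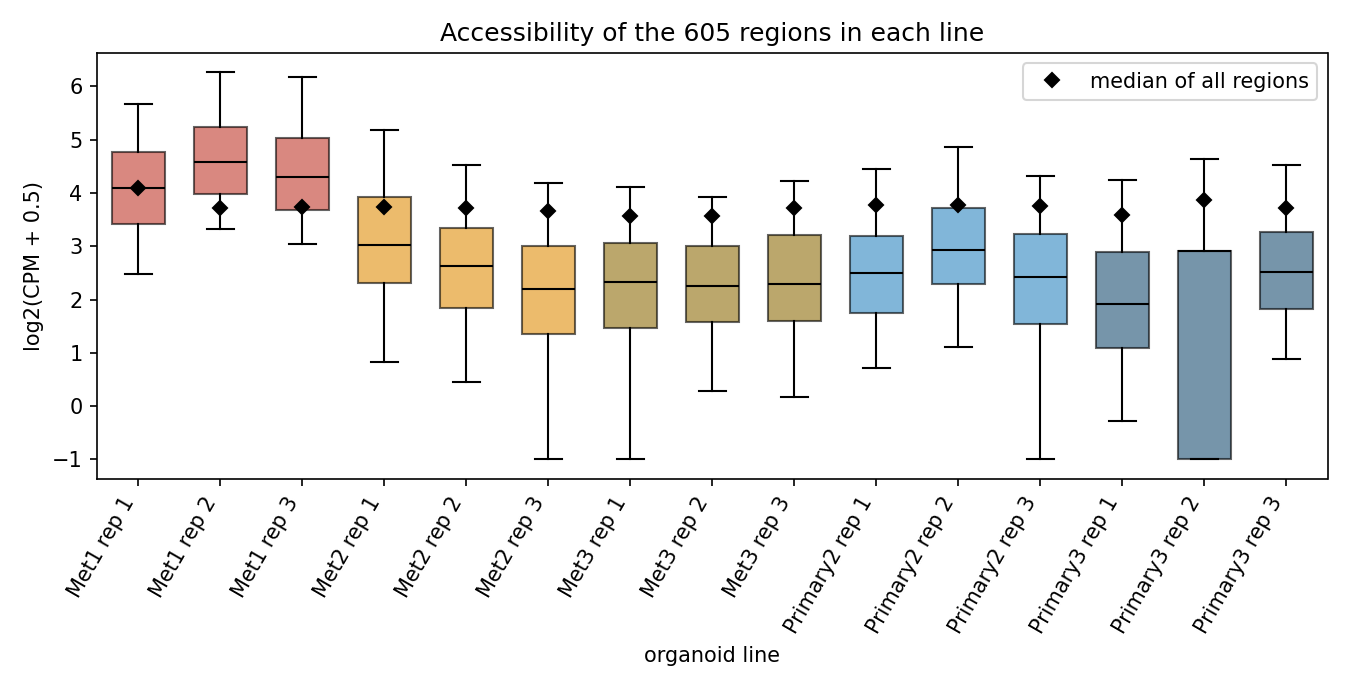
Accessibility of the 605 regions, as log2(CPM + 0.5), in each of the 15 organoid lines. Boxes span the quartiles with the median as a line, whiskers run from the 5th to the 95th percentile over regions, and diamonds mark the line's median over all 43020 regions; the medians at the 605 regions are 16.5, 23.4 and 19.1 CPM in the Met1 lines and at most 7.68 CPM in the other lines.

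The median region held 20.7 CPM in pooled Met1, against 6.21 in Met2, 4.71 in Met3, 5.84 in Primary2 and 4.76 in Primary3. Over all 43020 regions the same medians were 13.4 in Met1 and 12 to 13.3 in the other groups. In Met1 itself the regions were not the strongest: the 25445 other regions with Met1 at 10 CPM or more had a median of 24.3 CPM in Met1. Met1 replicate 1 had the same median at these regions as over all of its regions, 16.5 CPM, whereas replicates 2 and 3 stood above theirs of 12.7 and 12.9. The median fold of Met1 was 4.23 over Met3, 3.94 over Primary3, 3.15 over Primary2 and 2.98 over Met2. Of the 605 regions, 268 reached 2.5-fold over the highest other group, 126 reached 3-fold, 47 reached 4-fold and 19 reached 5-fold.

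The Met1 lines did not share these regions evenly. Taken singly, replicate 1 was at least 2-fold over the highest other group at 283 regions, replicate 2 at 516 and replicate 3 at 419. All 3 lines reached 2-fold at 166 regions (27.4%), a pair of lines at 281 (46.4%) and a single line at 158 (26.1%). Of these 158, 106 were replicate 2 alone, 49 replicate 3 alone and 3 replicate 1 alone. The coefficient of variation over the Met1 lines had a median of 0.358 at the 605 regions, against 0.259 at the 25445 other regions with Met1 at 10 CPM or more. Every Met1 line lay above each of the 12 other lines at 304 regions (50.2%), a pattern found at 2.09% of all 43020 regions. This rests on the values that chose the regions, so nothing is read from the contrast. Without the shallow Met1 replicate 1 the number was 459, without Met2 replicate 1 it was 364 and without Primary3 replicate 2 it was 337. Leaving out a line can only raise this number, and the matching shares over all regions were not taken.

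Of the 605 regions, the 10 given next had the largest fold over the next group with no overlap between Met1 and the other lines. At peak_53206 (mm9 chromosome 2, 48390834 to 48391665) the Met1 lines held 22.8, 38.0 and 41.3 CPM. The other metastasis lines held 5.12, 2.63 and 2.72 CPM in Met2 and 0.00, 0.71 and 0.00 in Met3, and the primary lines held 1.73, 2.74 and 0.00 in Primary2 and 0.66, 0.00 and 0.68 in Primary3. The pooled fold over Met2, its next group, was 9.86. A second region of the set, peak_53207 (chromosome 2, 48399821 to 48400524), lies next to it and averaged 33.1 ± 14.97 CPM in Met1 against 4.32 ± 5.77 in Met2, 5.33 ± 1.95 in Met3, 3.47 ± 2.45 in Primary2 and 4.74 ± 2.56 in Primary3 (SD, n = 3 each). In Met2 its signal came mainly from replicate 2, at 10.97 CPM, whereas replicates 1 and 3 were at 0.64 and 1.36.

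At peak_31628 (chromosome 15, 54693755 to 54694426) the Met1 lines held 15.2, 31.3 and 30.2 CPM, and the highest other line held 7.0 CPM, which is 2 counts in the shallow Primary3 replicate 2. The fold over its next group, Primary2, was 7.71. At peak_56017 (chromosome 2, 132023635 to 132024417) the Met1 lines held 43.0, 66.7 and 55.1 CPM. Met2 replicate 1 kept 20.5 CPM there, against 3.51 and 2.72 in Met2 replicates 2 and 3, and the other groups lay between 0.00 and 12.95. The same line stood out at peak_102056 (chromosome 9, 44910101 to 44911671), with 24.96 CPM against 3.95 and 5.44 in its group, where the Met1 lines held 50.6, 64.2 and 69.4. In both regions Met2 replicate 1 lay between Met1 and every other line. Without it the log2 fold at peak_102056 was 3.20, in place of 2.57. Of these regions, peak_102056 was also called higher in metastasis than in primary lines over rounds 2 and 3, comparisons that hold no Met1 line, at a log2 difference of 1.85 ± 0.54 (SE, edgeR adjusted p = 0.0172). By the same edgeR test peak_31628 was lower in metastasis lines, at -1.81 ± 0.63 (adjusted p = 0.0426). That call rests on 1, 0 and 5 counts in the Met2 lines and 1, 1 and 2 in the Met3 lines. Met2 replicate 3 (3.40 CPM) lay above Primary2 replicates 1 and 3 (2.88 and 1.62 CPM). The region passed edgeR's filter on low counts with the Met1 libraries counted, where it was chosen to be high. Nothing is therefore read from the call at peak_31628.

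The remaining regions of the set were weaker in Met1. They were peak_31580 (chromosome 15, 53494721 to 53495231, 6.17-fold), peak_37779 (chromosome 16, 82446431 to 82446699, 6.04-fold), peak_37252 (chromosome 16, 45106395 to 45106786, 6.03-fold), peak_53613 (chromosome 2, 62773503 to 62773789, 5.92-fold) and peak_59550 (chromosome 3, 30102545 to 30103109, 5.70-fold). Their Met1 lines lay between 5.06 CPM (peak_37779, replicate 1) and 29.1 CPM (peak_59550, replicate 2), and the highest other line held 7.0 CPM, again 2 counts in Primary3 replicate 2.

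**Figure D2:**
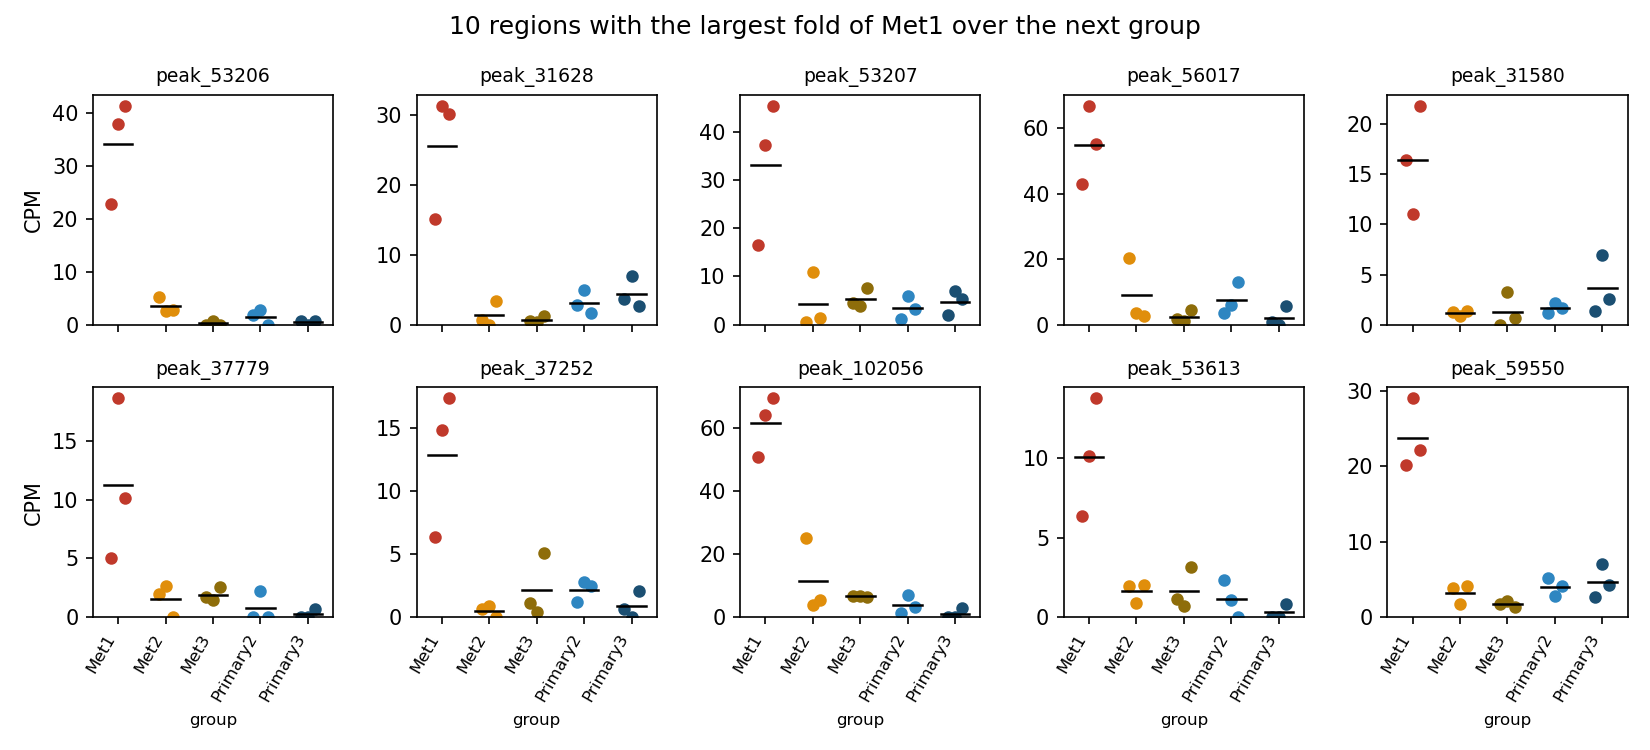
CPM of each line (points) and the mean of its group (bars) at the 10 regions with the largest pooled fold of Met1 over the next group, among those with no overlap. Met1 points lie above all others in each panel, and a single Met2 line, replicate 1, stands out at peak_56017 (20.5 CPM) and peak_102056 (24.96 CPM).

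The 5 regions with the highest Met1 signal had smaller folds. At peak_73281 (chromosome 5, 64735220 to 64737165) the Met1 lines held 78.5, 168.6 and 108.9 CPM, and Primary2 replicate 2, at 83.4 CPM, lay above Met1 replicate 1. At peak_38742 (chromosome 17, 3246116 to 3247521) Met2 replicate 1 held 125.5 CPM, among the Met1 lines at 91.1, 88.6 and 130.4, while Met2 replicates 2 and 3 held 32.0 and 8.17. At peak_46165 (chromosome 18, 63755251 to 63757795), peak_82721 (chromosome 6, 72423383 to 72424127) and peak_31267 (chromosome 15, 36960709 to 36961973) the lowest Met1 line was above every other line, with 53.1, 99.97 and 56.95 CPM. The highest other line held 51.6 CPM at peak_46165 (Primary2 replicate 2) and 68.6 CPM at peak_82721 (Met3 replicate 1). At peak_31267 it held 56.0 CPM, which is 16 counts in the shallow Primary3 replicate 2. The folds over the next group at these 5 regions ran from 2.03 to 2.97. The 2.03-fold of peak_38742 became 3.93 once Met2 replicate 1 was left out, and 1.57 or 1.54 once replicate 2 or 3 of Met2 was.

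The limit of 2-fold fell within a continuous range. Just inside it were peak_26210 (55.1 CPM in Met1 against 27.3 in its next group, Met2), peak_6285 (22.3 against 10.9 in Met2) and peak_36187 (50.2 against 24.8 in Primary2). Just outside were peak_30517 (15.1 CPM in Met1 against 7.3 in Primary2), peak_84222 (26.3 against 12.9 in Primary2) and peak_43926 (15.5 against 7.51 in Primary2).

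To read each Met1 line where it had no part in the choice, the same rule was run with each Met1 line left out and the line's own signal was read at the regions chosen. Without replicate 2 the rule chose 570 regions, and at these replicate 2 held a median of 16.6 CPM, against 12.7 over all its regions. It was above the highest other group at 517 of them (90.7%) and at least 2-fold over it at 309 (54.2%). Without replicate 3 the rule chose 879 regions, where replicate 3 held a median of 14.1 CPM against 12.9 over all its regions, and was at least 2-fold over the highest other group at 320 (36.4%). Without replicate 1 it chose 648 regions, where replicate 1 held a median of 15.2 CPM against 16.5 over all its regions, and reached 2-fold at 246 (38.0%). Replicates 1 and 3 were above the highest other group at 82.1% and 86.7% of the regions chosen without them. Among the other regions with Met1 at 10 CPM or more, 4.13%, 1.58% and 0.788% reached 2-fold in replicates 1, 2 and 3. Of the same other regions, 30.0%, 29.4% and 28.6% were above the highest other group. The other groups were chosen to be low in each case, which raises these folds. The held-out line's own counts took no part in the choice, but the other Met1 lines had to reach 10 CPM. That limit leaves out weak regions, so nothing is read from the medians set against all regions. Under the full rule, the other regions with Met1 at 10 CPM or more had a pooled Met1 median of 24.3 CPM.

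**Figure D3:**
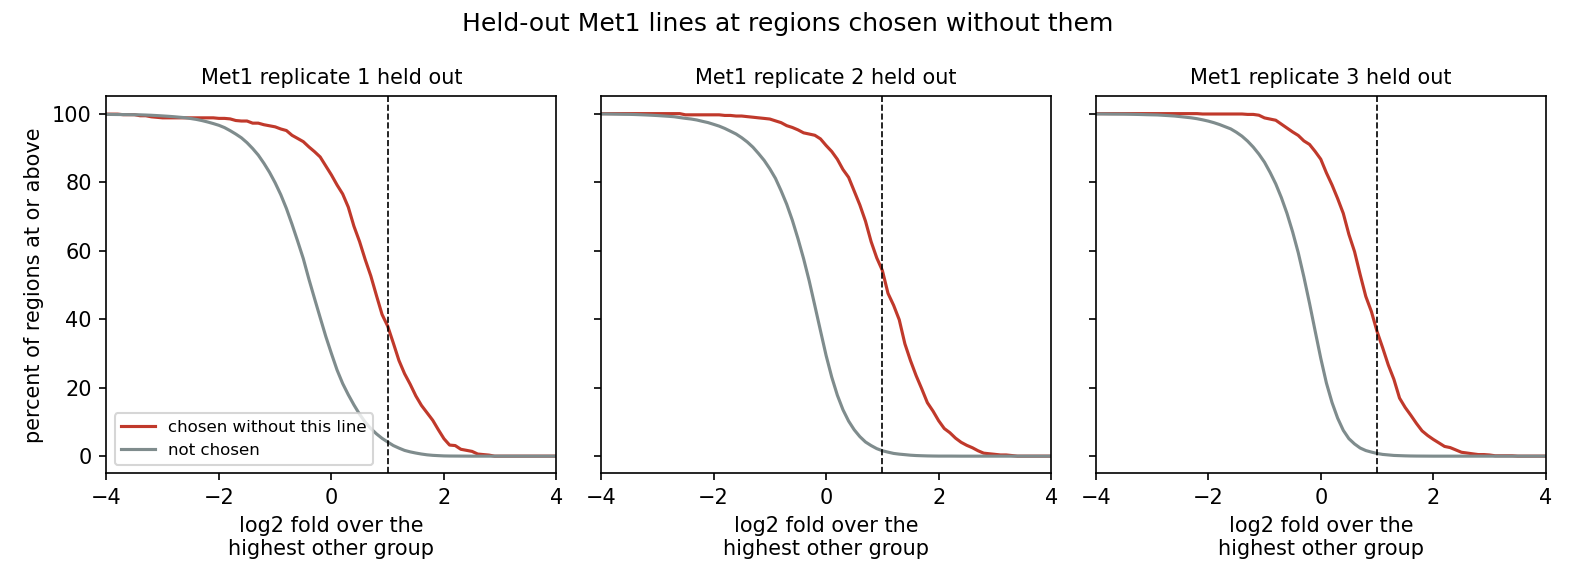
Percent of regions (vertical axis) at or above a given log2 fold of the held-out Met1 line over the highest other group (horizontal axis, 0.5 CPM added), for regions chosen without that line and for the other regions with Met1 at 10 CPM or more. At the dashed line, 2-fold, the chosen regions stand at 38.0%, 54.2% and 36.4% for replicates 1, 2 and 3, and the others at 4.13% or less.

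Outside Met1, the remaining accessibility was uneven between lines of a group. The next group after Met1 was Met2 at 241 of the 605 regions, Primary2 at 195, Primary3 at 98 and Met3 at 71. The highest single line outside Met1 was Met2 replicate 1 at 196 regions. Primary3 replicate 2 was the highest at 92, where a single count is 3.5 CPM, and Primary2 replicate 2 at 86. Met2 replicate 1 held at least 10 CPM at 238 of the regions, against 142 for Met2 replicate 2 and 99 for Met2 replicate 3, and Primary2 replicate 2 at 200, against 124 for Primary2 replicate 1. These lines of round 2 were looked at further after their values had been seen. At 146 regions (24.1%) Met2 replicate 1 was at least 2-fold over both other Met2 lines, against 8.72% of all regions. Primary2 replicate 2 was so over its group at 94 regions (15.5%), against 3.25% of all regions. This measure was taken for these lines only. The 605 regions had lower medians than all regions in Met2 (6.21 against 13.2 CPM) and Primary2 (5.84 against 13.3 CPM). The part of this lower level in the shares was not tested.

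At the 146 regions the medians were 16 CPM in Met2 replicate 1 and 3.73 and 2.72 in Met2 replicates 2 and 3, while Met1 replicates 1, 2 and 3 stood at 16.5, 26.9 and 24.1. At the 94 regions they were 10.4 CPM in Primary2 replicate 2 and 3.45 and 2.43 in Primary2 replicates 1 and 3. The sets shared 34 regions, 23.3% of the first and 36.2% of the second. The Met3 lines had medians between 3.22 and 3.78 CPM at the 146 regions. The differences within Met2 and within Primary2 at these sets restate how the sets were picked.

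Comparisons without Met1 took no part in the choice, beyond the limit it puts on every other group. Of the 605 regions, 593 passed edgeR's filter on low counts and were tested in a fit of all 39952 tested regions. The filter counted the Met1 libraries, so a region could pass through the group in which it was chosen to be high. Nothing is therefore read from the counts or shares over the 593 alone. Without the Met1 libraries 424 passed. The 12 that did not pass with them had Met1 signals between 10.3 and 17.5 CPM, and the largest fold among them was 6.04 (peak_37779). No region of the 593 differed between Met3 and Met2 (edgeR quasi-likelihood test, adjusted p under 0.05), where edgeR also called 0% of all tested regions, and 71 (12%) had an unadjusted p under 0.05, against 7.32% of all tested regions. None differed between Primary3 and Primary2 either (background 0%), and 51 (8.6%) reached an unadjusted p under 0.05, against 6.62% of all tested regions. DESeq2 called 2 regions in the first comparison and 1 in the second, all lower in round 3. Without Met2 replicate 2 or 3, edgeR called 1 or 2 regions between Met3 and Met2, again lower in Met3. Shares over all tested regions are not given for these settings, so nothing is read from these counts.

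The median log2 fold change of Met3 over Met2 at the 593 regions was -0.39, beside -0.01 over all tested regions, and that of Primary3 over Primary2 was -0.29, beside -0.05. Without Met2 replicate 1 the first was -0.13, and without Met2 replicate 2 or 3 it was -0.46 or -0.55. The second was -0.08 without Primary2 replicate 2 and -0.40 without Primary2 replicate 1. Without Primary3 replicate 3 or 1 the second was -0.60 or -0.17. These medians therefore depended on which Met2, Primary2 or Primary3 line was left out. They also rest on the filter that counted the Met1 libraries. With filter and fit on only the groups compared, they were -0.31 and -0.26, beside -0.01 and -0.04 over all tested regions.

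In rounds 2 and 3 together, 52 of the 593 regions (8.77%) changed between metastasis and primary lines, 29 higher and 23 lower in metastasis lines (edgeR quasi-likelihood test). Over all tested regions 20.2% were called, 11.2% higher and 8.98% lower. The 593 regions had a lower level in these 4 groups, with a median of 5.55 CPM against 14.5 for all tested regions, and the part of this in the share called was not tested. All 52 had the same sign in both rounds, as had 99.6% of all 8080 called regions. With the filter and fit on the 12 libraries without Met1, 37 of 424 (8.73%) were called, beside 21.7% of all tested regions. At the 29 regions called higher the median pooled signal was 10.9 CPM in Met2 and 9.25 in Met3, against 4.17 in Primary2 and 2.49 in Primary3, and it was 33.2 in Met1. At the 23 called lower it was 5.84 CPM in Met2 and 3.73 in Met3, against 13.55 in Primary2 and 12 in Primary3, and it was 42.4 in Met1. The order of these medians follows from how the regions and the calls were chosen. Removing each library's chromosome medians gave 19 higher and 28 lower, and leaving out Met2 replicate 1 gave 16 and 47. Leaving out Met3 replicate 1 or Primary2 replicate 1 gave 19 higher and 19 lower, Primary2 replicate 3 gave 18 and 21, and Primary3 replicate 1 gave 14 and 20. In the other direction, Met2 replicate 3 gave 39 and 20, Primary2 replicate 2 gave 34 and 16, Primary3 replicate 3 gave 29 and 18, and DESeq2 gave 34 and 25. Shares over all tested regions are not given beside these alternatives. How the counts moved is therefore not read as particular to these regions. The median log2 fold change was 0.08, beside 0.04 over all tested regions.

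Of the 593 regions, 4 (0.675%) were called higher with every metastasis line above every primary line of its round. Among all tested regions the share was 4.65%. The 593 passed a filter that counted the Met1 libraries. Nothing is therefore read from this share or from that of the lower calls below. At peak_31533 (chromosome 15, 50091499 to 50091958) the Met2 lines held 15.4, 7.90 and 8.85 CPM against 1.15, 5.48 and 2.43 in Primary2, and the Met3 lines 3.94, 13.6 and 10.1 against 1.31, 0.00 and 0.34 in Primary3. The log2 fold change was 2.75 ± 0.54 (SE), with an edgeR adjusted p of 0.000899. Here the Met1 lines, at 10.1, 39.9 and 14.4 CPM, were led by replicate 2. The others were peak_27611 (chromosome 14, 33003430 to 33004502, log2 fold change 1.80 ± 0.44), peak_49121 (chromosome 19, 31523881 to 31524394, 1.67 ± 0.48) and peak_6818 (chromosome 10, 26263976 to 26264970, 1.14 ± 0.38). The last had an edgeR adjusted p of 0.0334 and was not called in 8 of 22 alternatives, with adjusted p up to 0.0978. At peak_27611 Met3 replicate 1 (31.5 CPM) and Met2 replicate 2 (22.8 CPM) lay above Met1 replicate 1 (17.7 CPM).

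In the other direction 7 (1.18%) were called lower with no overlap, beside 5.01% of all tested regions, and the 4 with the largest decreases are given. At peak_36051 (chromosome 16, 20256893 to 20257621) the Met2 lines held 1.28, 2.63 and 2.72 CPM against 10.4, 6.03 and 6.48 in Primary2, and the Met3 lines 1.13, 2.14 and 1.89 against 8.85, 17.5 and 10.99 in Primary3. On the log2 scale metastasis minus primary lines came to -2.14 ± 0.40 (SE), with 0.000592 as the edgeR adjusted p, while the Met1 lines held 15.2, 28.8 and 26.9 CPM. At peak_29953 (chromosome 14, 102303779 to 102304852) it was -1.49 ± 0.36, at peak_18352 (chromosome 12, 8562170 to 8563466) -1.20 ± 0.32 and at peak_73281 -1.19 ± 0.27. In these regions the primary lines lay nearer to Met1 than the later metastases did, which follows from how the regions and the calls were chosen. A further region, peak_54082 on chromosome 2, is named after its values were seen because all Met3 lines were at 0 counts there. Pooled Primary3 held 5.4 CPM, so Met3 was at least 11.1-fold lower when 3 counts over the group are taken as the floor.

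**Figure D4:**
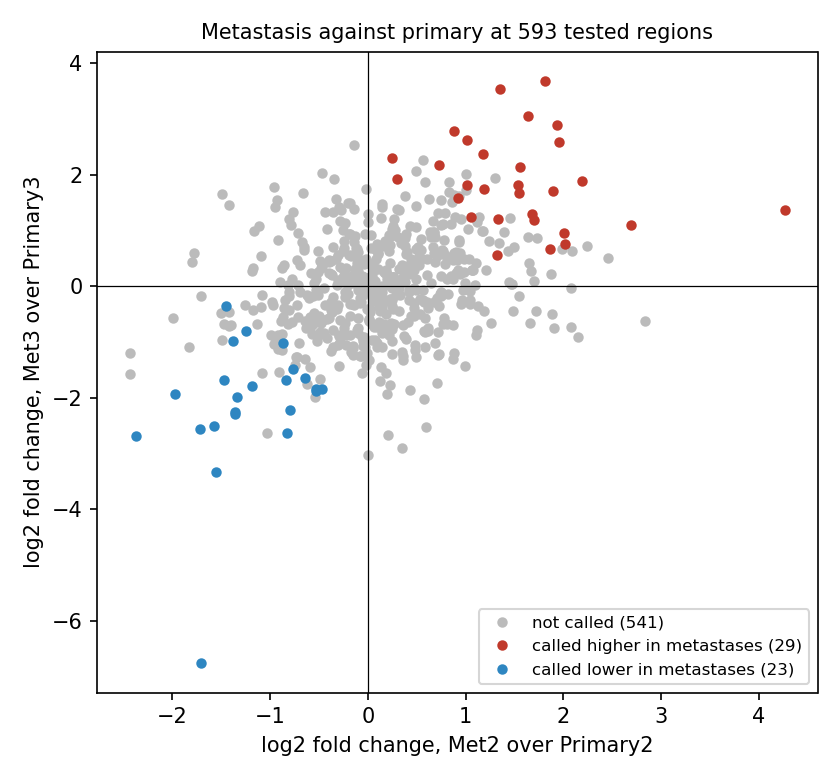
Log2 fold change of Met2 over Primary2 (horizontal) and of Met3 over Primary3 (vertical) at the 593 tested regions; colours mark the regions called over rounds 2 and 3 jointly. The 29 regions called higher and the 23 called lower in metastasis lines lie in opposite corners, and the point far below the others is peak_54082, whose fitted value depends on edgeR's prior count because Met3 held 0 counts.

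In each round alone fewer were called. Between Met3 and Primary3, 23 of the 593 regions (3.88%) changed, 9 higher and 14 lower in Met3 (edgeR adjusted p under 0.05). All tested regions were called at 10.2%, 5.64% higher and 4.52% lower. Between Met2 and Primary2, 6 changed (1.01%), 4 higher and 2 lower in Met2. Here 6.21% of all tested regions were called, 3.44% higher and 2.77% lower. Shares over the 593 rest on a filter that counted the Met1 libraries, so nothing is read from them here. None of the called regions was called in both rounds. The matching share over all tested regions was not taken, so nothing is read from this count. No region of the 593 was called for a metastasis effect that differed between rounds by edgeR (background 0%) or DESeq2, and 39 (6.58%) had an unadjusted p under 0.05 in edgeR, against 6.43% of all tested regions. The counts per round moved with single lines. Round 3 gave 8 and 13 without Met3 replicates 1 and 3 and 6 without Primary3 replicate 1. Round 2 gave 10, 11 and 12 without Met2 replicates 1, 2 and 3 and 0, 2 and 3 without Primary2 replicates 1, 2 and 3. The matching shares over all tested regions are not given, so these moves are not read as particular to the 593.

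The regions were spread unevenly over the chromosomes, which the rule did not use. Chromosome 15 held 75 of them, 3.83% of its 1960 regions, and chromosome 6 held 67 (2.61%). Chromosome 5 held 10 (0.37%), the lowest share of any chromosome but Y, whose 2 regions held none. Chromosome 15 as a whole was raised in Met1 replicate 2, with a median log2 shift of 0.48, against 0.00 in Met1 replicates 1 and 3. Of its 75 regions 57 were highest in replicate 2 among the Met1 lines, against 266 of the 530 regions elsewhere. Chosen without replicate 2, chromosome 15 held 33 regions, and with chromosome medians removed it held 37. Those 33 regions had a median fold of 3.08 in replicate 2 over the highest other group, against 2.05 at the 537 regions chosen elsewhere.

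Chromosome 6 was raised by 0.34 and 0.26 in Met1 replicates 1 and 2 and by 0.01 in replicate 3. It was also raised in Met2 replicates 1 and 2, by 0.23 and 0.26, and in Met3 replicate 2, by 0.13. It held 52 regions after its medians were removed. On chromosome 5 the Met1 lines were low (-0.14, -0.19 and -0.20) and Met2 replicate 1 was high (0.60). With chromosome medians removed, chromosome 5 held 33 regions in place of 10, chromosome 18 held 24 in place of 13 and chromosome 10 held 23 in place of 40. On chromosome 18 all 9 metastasis lines lay between -0.18 and -0.13 and all 6 primary lines between 0.19 and 0.37. After this step the rule chose 549 regions, 482 of them among the 605. Copy number was not measured here, and its part in these shifts was not tested.

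**Figure D5:**
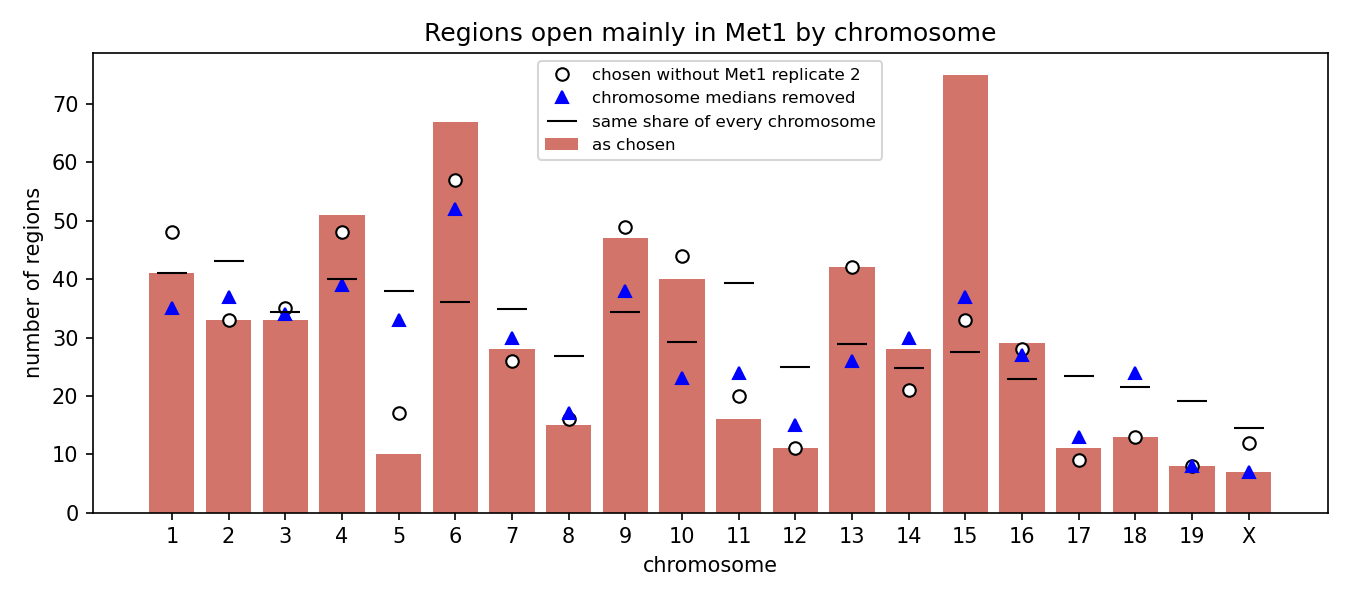
Number of regions open mainly in Met1 on each chromosome (bars), with the number when Met1 replicate 2 is left out of the rule (circles), when each library's chromosome medians are removed (triangles) and when the 605 regions are shared out by each chromosome's number of regions (dashes). Chromosome 15 holds 33 and 37 regions in the first 2 alternatives, against 75 as chosen, and chromosome 5 holds 17 and 33, against 10.

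The regions also lay near each other. For 19.0% the next region on either side was itself one of the 605, against 2.73% of all regions, and 30.4% had another within 100 kb, against 8.71% of all regions. Outside chromosome 15 the first pair of shares was 19.2% and 2.5%. In all, 115 regions formed 51 runs of neighbours in the table, of which 39 were pairs, 11 were runs of 3 and 1 was a run of 4. The run of 4 covered 20.8 kb on chromosome 1 (82968177 to 82989019). It held 19.2, 20.7, 27.8 and 30.4 CPM in pooled Met1 and at most 11.9 CPM in any other pooled group. Met1 replicates 2 and 3 each reached 2-fold over the highest other group at all 4 regions. Met1 replicate 1 did so at none, with folds from 0.97 (peak_2028) to 1.62 (peak_2029). Met2 replicate 1 lay above Met1 replicate 1 at peak_2029 (14.1 against 10.1 CPM) and peak_2031 (18.6 against 13.9 CPM). Only at peak_2030 was every Met1 line above all other lines. A run of 3 on chromosome 9 (7678069 to 7689999) was centred on peak_100761, with 67.2 CPM in pooled Met1 against 6.59 in Met2, 3.25 in Met3, 13.97 in Primary2 and 2.05 in Primary3. A run of 3 on chromosome 3 (30088324 to 30103109) ended with peak_59550, described above. The regions are therefore not independent of each other.

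On a fixed grid of 2 Mb windows the fullest held 6 of the regions. They were 54 to 56 Mb on chromosome 15 (of 66 regions in the table), 20 to 22 Mb on chromosome 16 (of 84) and 50 to 52 Mb on chromosome 6 (of 92). When the window could start at any of the regions, a choice made after seeing the data, the fullest held 11 on chromosome 15, whose starts span 1.55 Mb (53322454 to 54874162). The next held 8 each on chromosome 6 (49167586 to 50784768) and chromosome 9 (44910101 to 46440758).

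In size the regions resembled the table as a whole, with a median width of 710 bp (213 to 3019) against 746 bp. The 25445 other regions with Met1 at 10 CPM or more were wider, with a median of 982 bp, and 20.1% of them were 1500 bp or wider, against 11.2% of the 605. The authors' score of a region, whose scale is not stated, had a median of 20 at the 605 regions, 46.1 at these others and 21.8 over all regions. Per the region names, regions were called over all samples together.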

How the data were processed

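ATAC-seq libraries were made with the TDE1 enzyme from dissociated organoid cells and sequenced in paired-end mode, per the labels' protocols. Bowtie, bedtools, MACS2, SAMtools and Picard are named without roles or versions, per the submitters' processing notes, with the build mm9. Handling of read shifts, duplicates and mitochondrial reads was not stated. Counts per region and library are raw in the table the authors deposited, and coordinates are as printed there.

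Groups came from the sample titles. CPM divides counts by the library's total over all regions; no further scaling was applied. Contrasts without Met1 were tested with edgeR 4.0.16 (limma 3.58.1, R 4.3.3): filterByExpr (minimum count 10, total 15), TMM, 5 group means over 15 libraries, robust quasi-likelihood, Benjamini-Hochberg adjustment over 39952 regions, called under 0.05. The fit was tested on simulated data with changes placed only in regions above the median level. That test does not cover regions at lower levels, and its outcome is not given here. Alternatives included DESeq2 1.42.0, no filter, other scalings and leaving out each library.

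The regions and the rule for naming them were chosen with earlier results of these data known. The rule names the 10 largest folds without overlap, the 5 highest Met1 signals, the 4 largest called changes per direction without overlap, regions beside the 2-fold limit and the fullest 2 Mb windows. The gene annotation given is for GRCm38 and was not used, so genes, gene lists, motifs and sequences at these regions were not analysed here.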

Additional observations from a re-analysis of the deposited data

How the results depend on the processing

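The number of regions open mainly in Met1 depended most on the limits themselves, with 126 at 3-fold, 1681 at 1.5-fold and 320 with a minimum of 20 CPM. It ran from 467 (pseudocount 2) to 808 (minimum of 5 CPM) in the other settings, with 513 after TMM scaling, and from 530 (without Met2 replicate 3) to 879 (without Met1 replicate 3) when single lines were left out. Without Met1 replicate 2, 389 of the 605 remained. The mean of the lines in place of pooled counts gave 634, of which 447 were among the 605. Calls in rounds 2 and 3 together with 1 line left out ran from 34 to 63, those of Met3 against Primary3 from 6 to 23, of Met2 against Primary2 from 0 to 12 and of Met3 against Met2 from 0 to 2. In Met2 against Primary2, a fit of only these groups called 1 region and DESeq2 called 12. DESeq2 called 2 in Met3 against Met2 and 1 in Primary3 against Primary2. Same-numbered lines of different groups correlated in their deviations at -0.112 to 0.142. Differently numbered lines were not correlated as a reference, so this cannot settle whether replicate numbers pair the lines. With the replicate number as a block, 41 regions were called in rounds 2 and 3 together, 18 higher and 23 lower, in place of 52. The block called 5 in Met2 against Primary2, 20 in Met3 against Primary3 and 0 in the other comparisons. The difference of the effect between rounds gave 0 calls in all 22 alternatives run. The cause of these differences was not tested, and shares over all tested regions are not given beside these calls. Of 176 alternative values of the 8 regions named for metastasis against primary, 168 kept their direction and call, and 8, all at peak_6818, lost the call. Among alternative folds of Met1 at the named regions, 18 at 7 regions moved by more than the spread of the lines, 297 did not and none reversed. Depth was low in Primary3 replicate 2, where 247 of the 605 regions held 0 counts, and without it the rule chose 603 regions.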
